A study of Mus musculus with 15 samples.

Results

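The liver after weight loss without a bypass was compared with the liver of mice that ate freely. Both groups had sham surgery: 4 arrays came from mice kept at the body weight of bypass-operated animals (BWm, body weight-matched) and 5 came from mice fed ad libitum (Sham AL). These 9 arrays are all the BWm and Sham AL arrays among the 15 of the series, chosen by the group named in the sample titles. The other 6 arrays, from mice with Roux-en-Y gastric bypass (RYGB), entered the fit and are shown where they place a value. Every mouse in all 3 groups was a male of the ApoE*3Leiden.CETP line (labelled apoE3L.CETP), a transgenic mouse with human forms of apolipoprotein E and of cholesteryl ester transfer protein and a more human-like lipoprotein profile. Mice entered at 9 to 12 weeks of age, were given a diet of 60% fat with 0.25% cholesterol during the 6 weeks before surgery, were housed singly after it, and were killed 20 days after surgery. They also had an oral glucose tolerance test on day 13 and an insulin sensitivity test on day 19. The labels give neither the amount of food that held the BWm mice at their weight, nor the hour of their meals, nor the time of day at which livers were taken, so the length of the last fast cannot be told apart from weight loss in what follows. No unoperated or chow-fed group is part of the comparison, and each group shares 1 transgenic genotype.

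In the fasting liver, falling insulin and rising glucagon and glucocorticoids release the transcription factor FOXO1 and activate the fatty acid receptor PPAR alpha. Glucose production, fatty acid oxidation and ketone production then go up, while insulin-driven fat synthesis through SREBP1c goes down. The liver also has a circadian clock that takes its phase partly from the hour of feeding, and an endoplasmic reticulum (ER) whose folding machinery follows the load of secreted protein.

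Values are log2 signals from the robust multi-array average (RMA), in which 1 unit is a doubling. Levels are compared between arrays for 1 gene at a time and never between genes. Differences are BWm minus Sham AL on that scale, with their standard error (SE), and a gene is called where its Benjamini-Hochberg adjusted p from limma, over 22180 genes, is under 0.05. The SE pools the spread within all 3 groups, so a gene that varied among the RYGB arrays can miss a call. Array medians lay between 3.89 and 4.02. The 14 measured hepatocyte markers averaged between -0.117 and 0.098 of their series mean on the BWm and Sham AL arrays, and albumin (Alb) differed by 0.03 ± 0.08 (adjusted p = 0.92). Sham AL replicate 4 stood apart: 662 genes lay more than 1 log2 unit from the other arrays of its group, against 53 to 128 on any other array. It held adrenal and fat transcripts, with Cyp11b1 (adrenal steroid synthesis) at 10.37 against 2.39 to 3.10 on the other Sham AL arrays and Ucp1 (brown fat uncoupling protein) at 11.89 against 3.51 to 4.54. Results are given for all arrays, and calls of the named genes and lists that were lost or gained without this array are given beside them.

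Between BWm and Sham AL, 629 of 22180 genes were called, which is 2.84% of those tested. Of these, 340 were higher in BWm (1.53% of all genes) and 289 were lower (1.3%). When each array's median was subtracted first, the same comparison gave 440 higher and 183 lower, so the share of calls that were higher went from 54.1% to 70.6%; the balance of rises and falls depends on this scaling. At least 2-fold changes were found for 60 called genes that were higher and 28 that were lower. Without Sham AL replicate 4, 499 genes were called (2.25%), 258 higher (1.16%) and 241 lower (1.09%). A total of 438 genes were called in both fits (1.97%), 191 only with that array and 61 only without it, and 0 of the 438 changed direction. The count fell to 284 without BWm replicate 2, to 284 without BWm replicate 3 and to 382 without Sham AL replicate 2. The 4 BWm arrays and the 5 Sham AL arrays did not overlap in 1520 genes (6.85%), 768 above (3.46%) and 752 below (3.39%). Over all genes tested, 10424 differences lay above 0 and 11756 below 0. These are bulk samples, so a change in the share of a cell type and a change in RNA per cell cannot be told apart.

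**Figure D1:**
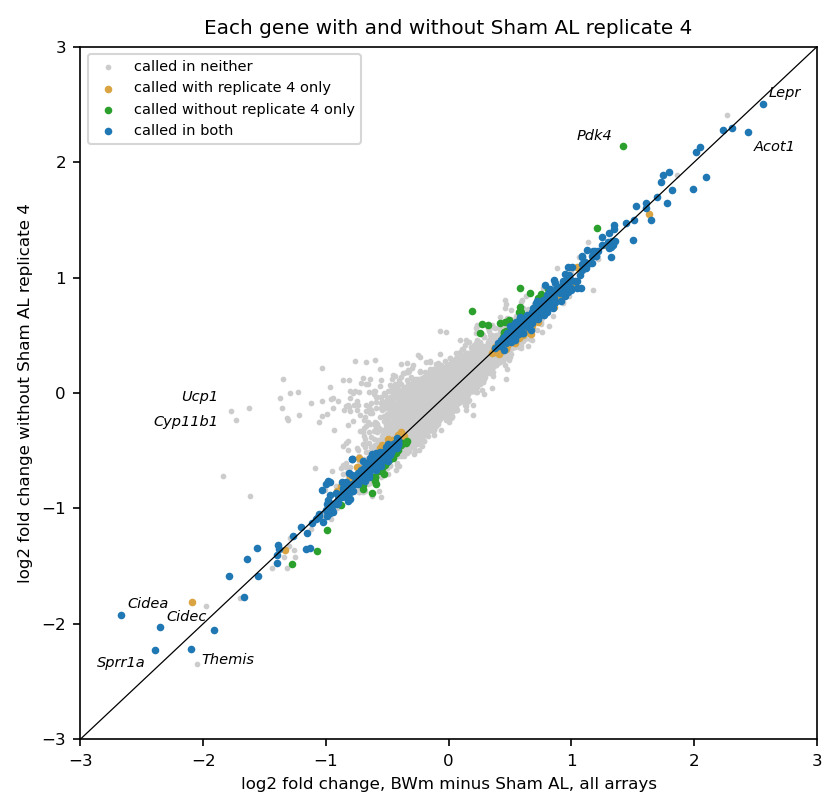
Each point is 1 gene, with the log2 fold change BWm minus Sham AL over all arrays on the x axis and the same without Sham AL replicate 4 on the y axis; colours show in which fit the gene was called, and the line marks equal values. The cloud left of the line near 0 on the y axis holds genes such as Ucp1 and Cyp11b1, which were high on that array alone, while the 438 genes called in both fits lie along the line.

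Hormone and nutrient signalling genes held the largest rise. Of 25 measured genes that carry insulin, IGF or growth hormone signals, 6 rose and 0 fell: Lepr, Igfbp1, Socs2, Irs2, Igfbp2 and Irs1. The median over the list was 0.15, against -0.01 over all genes, and 6 or 7 members were called whichever array was left out. Lepr, the leptin receptor, read 3.75, 4.36, 5.22, 4.23 and 4.68 in Sham AL replicates 1 to 5 and 6.67, 7.47, 7.26 and 6.63 in BWm replicates 1 to 4. The lowest BWm value was above the highest Sham AL value, and the difference of 2.56 ± 0.30 (5.89-fold, adjusted p = 0.00066) was the largest rise of any gene; since Sham AL values lie near the array median, the exact fold is uncertain. Igfbp1, a secreted IGF-binding protein repressed by insulin, read 6.67, 7.54, 7.53, 7.75 and 8.47 in Sham AL and 10.02, 10.29, 10.03 and 8.99 in BWm. Its groups did not overlap, with BWm replicate 4 the lowest of its group, and it rose by 2.24 ± 0.30 (adjusted p = 0.00091).

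Irs2, the insulin receptor substrate that FOXO1 induces when insulin is low, read 6.10, 6.70, 6.60, 7.08 and 6.95 in Sham AL and 8.32, 8.71, 8.59 and 8.03 in BWm. It rose by 1.73 ± 0.22 (3.31-fold, adjusted p = 0.00088) with no overlap. The other substrate gene, Irs1, rose by 0.76 ± 0.13 (adjusted p = 0.0036), and Igfbp2 by 1.32 ± 0.20 (adjusted p = 0.0018). Socs2, a growth-hormone-induced inhibitor of growth hormone signalling, read 4.57, 5.37, 4.15, 5.17 and 5.11 in Sham AL and 6.35, 7.57, 7.17 and 6.61 in BWm, a rise of 2.05 ± 0.32 (adjusted p = 0.0023). Igf1 itself, the main secreted product of growth hormone action in liver, differed by 0.48 ± 0.14 and was not called (adjusted p = 0.069), although its BWm arrays all lay above its Sham AL arrays. The insulin receptor gene Insr had a difference of 0.36 ± 0.10 (adjusted p = 0.069).

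Among 26 measured genes of gluconeogenesis and glycogen, 5 rose (Pck1, Got1, Slc37a4, Foxo1 and Ppp1r3g) and 0 fell, with a list median of 0.05. Pck1, which makes phosphoenolpyruvate for glucose synthesis, read 11.62, 11.40, 11.56, 11.65 and 11.52 in Sham AL and 12.37, 12.15, 12.06 and 11.97 in BWm, a rise of 0.59 ± 0.12 (adjusted p = 0.012) without overlap. Got1, the cytosolic aspartate aminotransferase, rose by 1.22 ± 0.24 (adjusted p = 0.0098), and Foxo1 by 0.62 ± 0.12 (adjusted p = 0.011). G6pc, the catalytic subunit of glucose-6-phosphatase, was higher on every BWm array (11.10 to 11.65, against 10.12 to 10.65) but was not called (0.94 ± 0.41, adjusted p = 0.27), while its partner transporter Slc37a4 was called (0.56 ± 0.13, adjusted p = 0.024). The SE of G6pc also takes in the spread among the RYGB arrays. Ppp1r3g, a glycogen-targeting phosphatase subunit, rose by 1.17 ± 0.28 (adjusted p = 0.031), and BWm replicate 3 lay inside the Sham AL range. The list kept 3 calls without Sham AL replicate 2, BWm replicate 2 or BWm replicate 3. Slc37a4 was not called without Sham AL replicate 2 or 4 or BWm replicate 2 or 3 (adjusted p up to 0.092), Foxo1 without BWm replicate 3 (0.051) and Ppp1r3g without Sham AL replicate 1, 2 or 3 or BWm replicate 1, 2 or 4 (up to 0.12).

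All 10 measured genes of the urea cycle list, which also holds amino acid transporters, had differences above 0 (median 0.29), and 2 were called: Asl, argininosuccinate lyase, rose by 0.94 ± 0.15 (adjusted p = 0.0025), and Cps1, which fixes ammonia at the start of the cycle, by 0.44 ± 0.10 (adjusted p = 0.023). Of 38 amino acid catabolism genes, Aass, the first enzymes of lysine degradation (0.73 ± 0.13, adjusted p = 0.0036), and Mat1a, which makes S-adenosylmethionine (0.44 ± 0.10, adjusted p = 0.023), were called. This was 5.26% of that list, against 2.84% of all genes. Cps1 was not called without Sham AL replicate 2 or 3 or BWm replicate 2 or 3 (adjusted p up to 0.070), nor Mat1a without Sham AL replicate 4 or BWm replicate 2 or 3 (up to 0.094). Among 28 targets of ATF4, the factor that answers amino acid shortage, 0 rose and 2 fell, Phgdh (-0.53 ± 0.11) and Wars (-0.49 ± 0.12). Asns, the ATF4 target that makes asparagine, differed by -0.06 ± 0.30 (adjusted p = 0.95). Phgdh was not called without BWm replicate 3 (adjusted p = 0.062), nor Wars without Sham AL replicate 1, 4 or 5 or any single BWm array (up to 0.10, and 0.077 without Sham AL replicate 4).

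**Figure D2:**
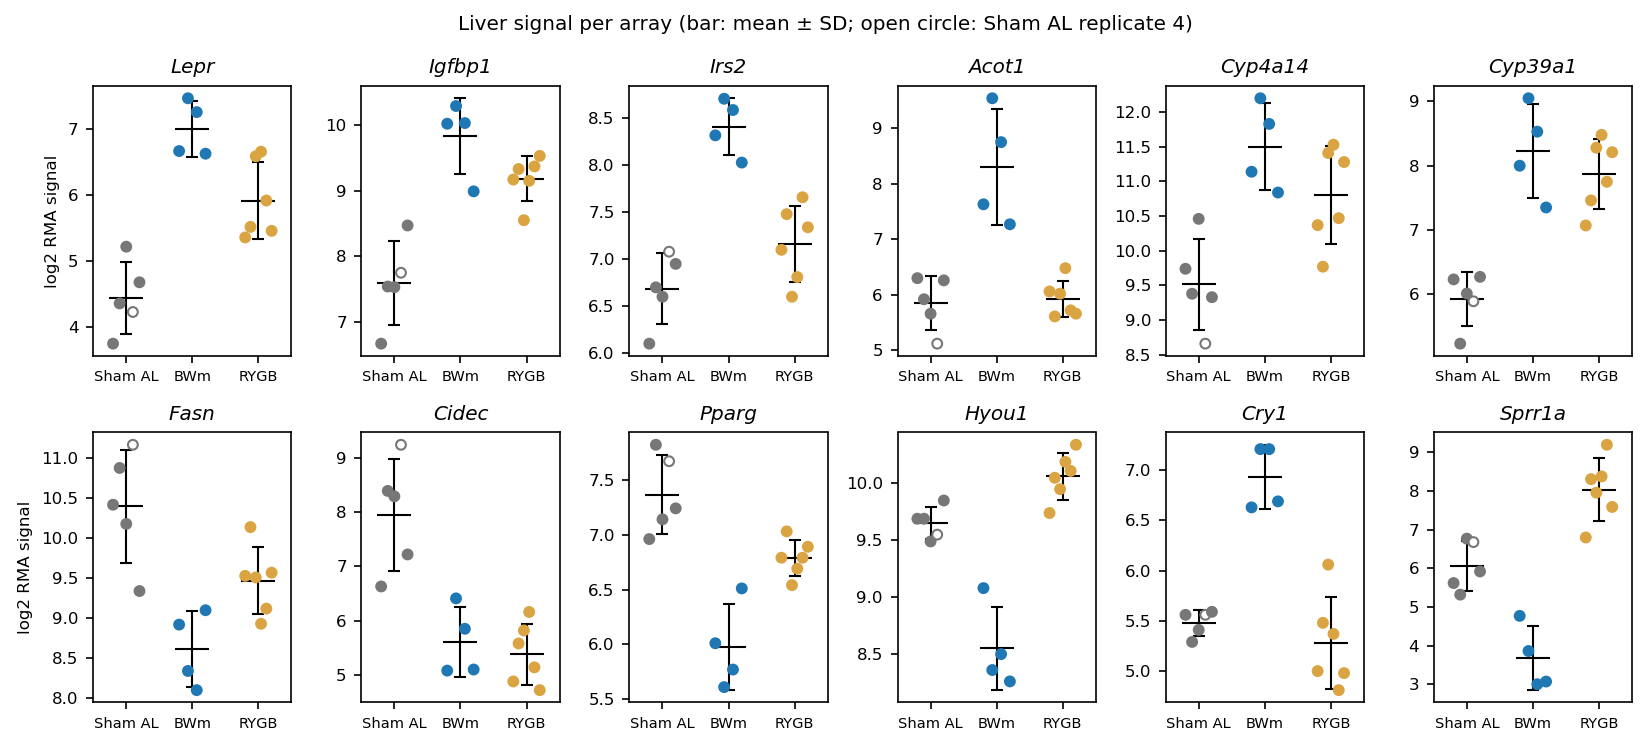
Log2 RMA signal of 12 genes on every array of the 3 groups; each point is 1 mouse, the bar is the mean ± SD, and the open circle is Sham AL replicate 4. The 12 genes were picked from those named in the text. In each panel all BWm points lie on one side of all Sham AL points, which holds for 6.85% of all genes. The y axes differ between genes and do not start at 0.

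The list of PPAR alpha targets and fatty acid oxidation genes rose in part. Of 41 measured PPAR alpha targets and oxidation genes, 7 rose and 0 fell (Acot1, Acot3, Cyp4a14, Acot4, Ppargc1a, Angptl4 and Ehhadh), the median was 0.15, and 33 members lay above 0. The list's mitochondrial enzymes of fatty acid oxidation were not among the 7. Acot1, an acyl-CoA thioesterase of the cytosol, read 6.30, 5.92, 5.66, 5.12 and 6.26 in Sham AL and 7.63, 9.54, 8.75 and 7.27 in BWm. It rose by 2.44 ± 0.35 (5.44-fold, adjusted p = 0.0016) with no overlap, and BWm replicates 2 and 3 were the highest. Its peroxisomal relatives Acot3 (2.10 ± 0.32, adjusted p = 0.0018) and Acot4 (1.34 ± 0.22, adjusted p = 0.0023) rose too; the Acot genes sit in a cluster of near-identical copies whose probes can share signal. Cyp4a14, a fatty acid omega-hydroxylase, read 9.74, 9.38, 10.46, 8.66 and 9.33 in Sham AL and 11.14, 12.20, 11.83 and 10.84 in BWm, a rise of 1.99 ± 0.38 (adjusted p = 0.0076) that may include other Cyp4a copies.

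Angptl4, a secreted inhibitor of lipoprotein lipase, rose by 0.93 ± 0.16 (adjusted p = 0.0038). Ppargc1a, the coactivator PGC1 alpha, rose by 1.01 ± 0.21 (adjusted p = 0.013), and Ehhadh, the peroxisomal bifunctional enzyme, by 0.72 ± 0.15 (adjusted p = 0.012). Cpt1a, which admits fatty acids to the mitochondrion, differed by 0.32 ± 0.10 and was not called (adjusted p = 0.097), although its groups did not overlap. Among 7 ketone synthesis genes 0 were called, and among 42 respiratory chain genes 0 were called, with medians of 0.06 and 0.08. Ppargc1a was not called without BWm replicate 2 (adjusted p = 0.063), nor Ehhadh without BWm replicate 3 (0.051). A pair of fasting genes was added after their values were seen. Pdk4, a kinase that shuts pyruvate out of oxidation, read 5.66, 6.50, 6.41, 10 and 7.14 in Sham AL and 8.18, 9.78, 9.13 and 7.16 in BWm. The array with fat transcripts gave its highest value, and the difference was 1.42 ± 0.64 with it (adjusted p = 0.29) and 2.14 ± 0.41 without it (adjusted p = 0.0085). Fgf21, the fasting hormone driven by PPAR alpha, differed by 0.15 ± 0.26 (adjusted p = 0.85), and its groups overlapped.

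Fat synthesis genes moved the other way. Of 26 measured genes of fatty acid synthesis and targets of SREBP1c or ChREBP, 0 rose and 5 fell (Fasn, Aacs, Thrsp, Me1 and Mid1ip1), with a median of -0.37. Fasn, fatty acid synthase, read 10.42, 10.88, 10.18, 11.17 and 9.34 in Sham AL and 8.92, 8.34, 8.10 and 9.10 in BWm. Every BWm value lay below the lowest Sham AL value, that of replicate 5, and Fasn fell by 1.79 ± 0.31 (3.45-fold, adjusted p = 0.0037), or by 1.59 without Sham AL replicate 4. Aacs, which uses acetoacetate for lipid synthesis, fell by 1.38 ± 0.29 (adjusted p = 0.013), and Mid1ip1, a partner of acetyl-CoA carboxylase, by 0.85 ± 0.16 (adjusted p = 0.0071). Mid1ip1 was not called by limma when all transcript clusters of each gene on the array were averaged (adjusted p = 0.16). Srebf1, which encodes SREBP1c, read 9.38, 9.21, 8.98, 8.67 and 8.57 in Sham AL and 8.32, 6.28, 7.12 and 8.75 in BWm. BWm replicates 2 and 3 were low and BWm replicate 4 lay within the Sham AL range, so that a difference of -1.34 ± 0.41 was not called (adjusted p = 0.093). Scd1, stearoyl-CoA desaturase, differed by -0.28 ± 0.15 (adjusted p = 0.42). The list had 3 calls without Sham AL replicate 2, BWm replicate 1 or BWm replicate 2. Me1 was not called without Sham AL replicate 2 or BWm replicate 1 or 2 (adjusted p up to 0.083), nor Thrsp without any single array of the 2 groups other than BWm replicate 4 (up to 0.15, and 0.058 without Sham AL replicate 4).

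Of 26 lipid droplet and steatosis genes, 0 rose and 5 fell (Cidea, Cidec, Anxa2, Pparg and Mogat1), with a median of -0.10. Cidec, which fuses droplets, read 6.63, 8.39, 8.29, 9.24 and 7.22 in Sham AL and 5.08, 6.41, 5.85 and 5.10 in BWm. The groups did not overlap, and Cidec fell by 2.35 ± 0.43 with all arrays (5.09-fold, adjusted p = 0.0055) and by 2.03 without Sham AL replicate 4 (adjusted p = 0.0083). Pparg, the lipid-storing nuclear receptor that switches on Cidec and Mogat1, read 6.96, 7.82, 7.14, 7.67 and 7.24 in Sham AL and 6.01, 5.61, 5.77 and 6.51 in BWm, a fall of 1.39 ± 0.19 (adjusted p = 0.0010). Cidea, the related droplet protein, read 4.59, 7.10, 5.97, 9.61 and 5.77 in Sham AL and 3.74, 3.76, 4.26 and 3.99 in BWm. BWm values were all near the array median, Sham AL replicate 4 was the highest, and the difference was -2.67 ± 0.62 with it (adjusted p = 0.024) and -1.92 without it (adjusted p = 0.0051). Cidea was not called without Sham AL replicate 2 or BWm replicate 1, 2 or 3 (adjusted p up to 0.081). Mogat1, a monoacylglycerol acyltransferase, fell by 0.82 ± 0.14 (adjusted p = 0.0034) at signals near the array median. Plin2, the coat protein of liver droplets, which was also added after its values were seen, differed by -0.07 ± 0.17 (adjusted p = 0.90). Without Sham AL replicate 4 the droplet list kept 5 falls and a median of -0.08, while fat markers changed more. The 14 white adipocyte markers had a median difference of -0.81 with all arrays and -0.19 without that array. Their centred mean was 2.183 on it, 0.028 to 0.257 on the other Sham AL arrays and -0.353 to -0.144 on the BWm arrays. For 14 brown adipocyte markers the medians were -0.28 and 0.10. The white adipocyte list shares Cidec and other members with the droplet list and also holds Thrsp. Its part in these falls was not tested.

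Cholesterol synthesis genes had a lower median in BWm without passing the threshold with all arrays. Of 18 measured, 0 were called in either direction by limma, 9 had an unadjusted p under 0.05, and 14 lay below 0, with a median of -0.51 (-0.44 without Sham AL replicate 4). The list had 1 fall without BWm replicate 1 or BWm replicate 4. Its centred mean was -0.868 to -0.264 on the BWm arrays and -0.539 to 0.075 on the Sham AL arrays, so the groups overlapped. Sqle, squalene epoxidase, read 4.22, 4.47, 4.40, 5.66 and 4.10 in Sham AL and 4.26, 3.18, 4.09 and 3.74 in BWm (-0.75 ± 0.45, adjusted p = 0.46). Of 18 bile acid synthesis genes, 3 rose (Cyp39a1, Klb and Akr1d1) and 1 fell (Hsd3b7). Cyp39a1, an oxysterol hydroxylase that feeds sterols made in the brain into bile acid synthesis, read 6.23, 5.23, 6.01, 5.89 and 6.27 in Sham AL and 8.0, 9.05, 8.53 and 7.35 in BWm. Its groups lay more than 1 unit apart, and it rose by 2.31 ± 0.32 (4.94-fold, adjusted p = 0.0012). Cyp7a1, the rate-limiting enzyme of the classical pathway, read 9.89, 10.19, 10.55, 10.33 and 10.80 in Sham AL and 10.96, 9.41, 10.10 and 10.80 in BWm. The groups overlapped in full (-0.03 ± 0.35, adjusted p = 0.98), and Cyp8b1, which sets the share of cholic acid, had 0.45 ± 0.39 (adjusted p = 0.65).

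Slco1a4, an organic anion and bile acid uptake carrier, rose by 1.50 ± 0.26 (adjusted p = 0.0036), the called member of 18 transport genes, and Apom, the apolipoprotein that carries sphingosine-1-phosphate, by 0.83 ± 0.13 (adjusted p = 0.0023), the only one of 19 lipoprotein genes. The shares called were 5.56% and 5.26%, against 2.84% of all genes. Another transport gene, the exporter Abcc3, was not called with all arrays (adjusted p = 0.083) and was called without Sham AL replicate 4 (-0.54 ± 0.14, adjusted p = 0.049) or BWm replicate 4 (adjusted p = 0.035). Hsd3b7 fell by 0.64 ± 0.12 (adjusted p = 0.0084). Klb, the co-receptor for FGF15 and FGF21, had 0.73 ± 0.17 (adjusted p = 0.027) and Akr1d1, a steroid reductase of the same route, 0.48 ± 0.13 (adjusted p = 0.047). Neither call held without Sham AL replicate 2 or 4 or BWm replicate 2, 3 or 4, nor that of Akr1d1 without Sham AL replicate 3 or BWm replicate 1 (adjusted p up to 0.088 for Klb and 0.14 for Akr1d1), so the list had 1 rise without Sham AL replicate 2 or 4 or BWm replicate 2, 3 or 4.

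The list with the highest share of calls was the protein-folding machinery of the ER. Of 30 measured genes of ER folding and the unfolded protein response, 12 fell, 0 rose and 28 lay below 0, with a median of -0.50 (40% called, against 2.84% of all genes). The 12 were Hyou1, Sdf2l1, Manf, Fkbp11, Hspa5, Dnajb11, Pdia6, Syvn1, Pdia3, Hsp90b1, Calr and Ero1b, which are chaperones, their cofactors, disulfide enzymes and a ubiquitin ligase (Syvn1) of the quality control system. Of the 12, 6 carry in their promoter the ER stress response element, CCAAT and CCACG with 9 bases of any kind between them, to which NF-Y and ATF6 bind. The stretches below show it, upstream of the start of transcription, in mouse RefSeq sequence of build GRCm38.p6, printed 5′ to 3′ on the strand of the gene. Capitals mark the element, which reads CGTGG, 9 bases and ATTGG where it lies on the opposite strand.
Hspa5 (chr2:34772005-34772063, plus strand): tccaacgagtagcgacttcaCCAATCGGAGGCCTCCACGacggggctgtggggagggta
Hsp90b1 (chr10:86705513-86705676, minus strand): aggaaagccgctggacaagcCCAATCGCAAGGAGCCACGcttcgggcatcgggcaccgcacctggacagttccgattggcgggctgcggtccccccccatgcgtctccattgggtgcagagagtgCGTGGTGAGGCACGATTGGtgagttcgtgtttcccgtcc
Pdia6 (chr12:17266471-17266529, plus strand): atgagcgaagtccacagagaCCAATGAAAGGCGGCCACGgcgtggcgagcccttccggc
Calr (chr8:84847055-84847113, minus strand): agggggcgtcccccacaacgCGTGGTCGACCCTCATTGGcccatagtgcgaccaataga
Ero1b (chr13:12565662-12565720, plus strand): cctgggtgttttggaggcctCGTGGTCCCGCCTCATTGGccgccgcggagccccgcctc
Syvn1 (chr19:6046512-6046570, plus strand): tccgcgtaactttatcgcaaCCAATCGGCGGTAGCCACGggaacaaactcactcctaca

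Among 32851 promoter windows of the same length, 39 hold this element on either strand (0.119%). Counted by gene, as the list members are, 37 of 27025 hold it (0.137%). It was found in 6 of the 10 called ER genes with a window, and in 4 of the 16 members with a window that were not called (Canx, Creld2, Derl3 and Dnajc3). The motif was chosen with results of these data known, and a match describes the sequence only.

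Hyou1, a chaperone of the ER lumen, read 9.69, 9.69, 9.49, 9.55 and 9.85 in Sham AL and 9.08, 8.36, 8.50 and 8.26 in BWm. It fell by 1.11 ± 0.15 (2.15-fold, adjusted p = 0.0013), and BWm replicate 1 lay nearest to Sham AL. Hspa5, the chaperone BiP, read 8.97, 9.12, 9.03, 8.94 and 9.19 in Sham AL and 8.53, 8.11, 7.97 and 7.97 in BWm. It fell by 0.90 ± 0.15 (adjusted p = 0.0036), again with BWm replicate 1 the highest of its group. Sdf2l1, a BiP partner (-1.08 ± 0.18, adjusted p = 0.0029), and Manf, a secreted ER protein (-0.99 ± 0.15, adjusted p = 0.0018), fell similarly. Fkbp11, a prolyl isomerase, fell by 0.99 ± 0.19 (adjusted p = 0.0090), but BWm replicate 1 at 6.79 lay inside its Sham AL range of 6.69 to 7.35. Xbp1, the transcription factor of the response, differed by -0.37 ± 0.12 (adjusted p = 0.11), and Ddit3 (CHOP), its death-linked factor, by -0.39 ± 0.30 (adjusted p = 0.60).

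The ER list had 13 calls without Sham AL replicate 4, where Txndc5 was added (adjusted p = 0.031, against 0.053 with all arrays), and 8 to 15 calls when any 1 array was left out. Calr was not called without BWm replicate 2 or 3 (adjusted p up to 0.057), Hsp90b1 without Sham AL replicate 2 or 5 or BWm replicate 2, 3 or 4 (up to 0.095), Pdia3 without these or Sham AL replicate 3 (up to 0.11), and Ero1b without Sham AL replicate 1, 2 or 5 or BWm replicate 2, 3 or 4 (up to 0.10). Downstream in the secretory route, 6 of 29 ER to Golgi transport genes fell and 0 rose, with a median of -0.26. Sec23b, a coat protein of vesicles that leave the ER, read 6.98, 6.96, 6.84, 6.75 and 7.07 in Sham AL and 6.10, 5.86, 6.08 and 6.00 in BWm, with a clear gap between the groups. It fell by 0.91 ± 0.11 (adjusted p = 0.00066), the tethering factor Uso1 by 0.65 ± 0.10 (adjusted p = 0.0020) and the coat protein Sec13 by 0.47 ± 0.10 (adjusted p = 0.012). These 3 were called whichever array was left out, and they were the only calls left without Sham AL replicate 2, BWm replicate 2 or BWm replicate 3. Sec24c was not called without those arrays (adjusted p up to 0.088), nor were Tmed3 and Copg1, which were also not called without Sham AL replicate 4 (up to 0.11 and 0.10), nor Copg1 without BWm replicate 4.

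**Figure D3:**
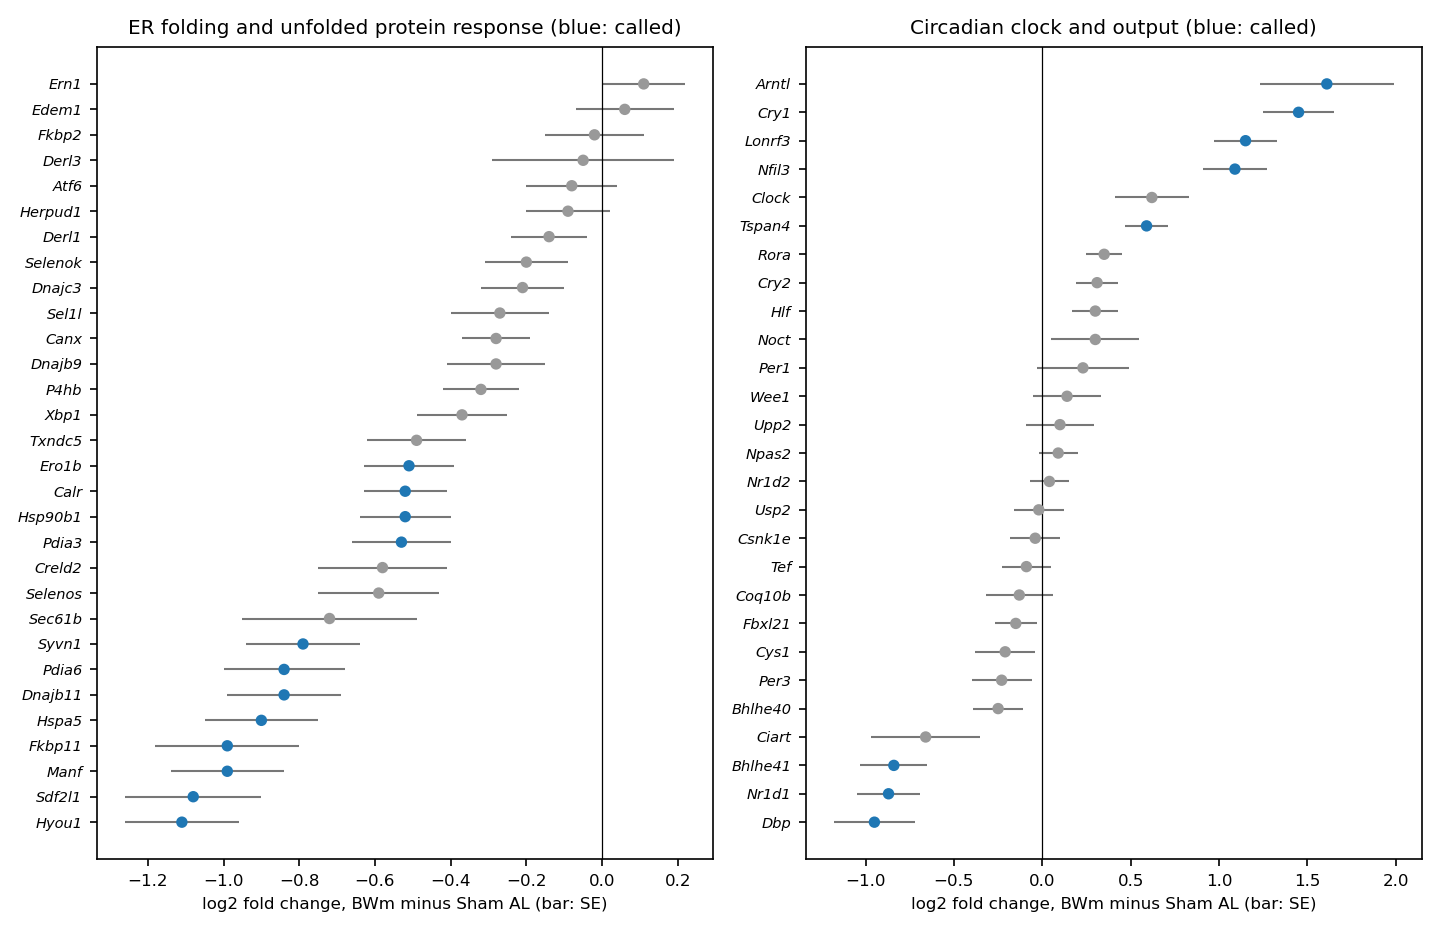
Log2 fold change BWm minus Sham AL (point) with its standard error (bar) for the 30 measured ER folding genes, left, and the 27 measured clock and clock-output genes, right; blue points were called. Of the ER genes 28 lie below 0, from Hyou1 at -1.11, while the clock genes spread from Dbp at -0.95 to Arntl at 1.61.

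Clock genes moved in both directions. Of 27 measured core clock and output genes, 5 rose (Arntl, Cry1, Lonrf3, Nfil3 and Tspan4) and 3 fell (Dbp, Nr1d1 and Bhlhe41). Arntl encodes BMAL1, the positive arm of the clock, which with CLOCK binds E-boxes; Cry1 and Bhlhe41 repress that pair, and Nr1d1 (REV-ERB alpha) represses Arntl. Cry1 read 5.56, 5.29, 5.41, 5.56 and 5.59 in Sham AL and 6.63, 7.21, 7.21 and 6.69 in BWm. All BWm arrays lay more than 1 unit above all Sham AL arrays, and the rise was 1.45 ± 0.20 (2.74-fold, adjusted p = 0.0013). Nfil3, the repressor E4BP4 that opposes DBP, rose by 1.09 ± 0.18 (adjusted p = 0.0034) and Lonrf3 by 1.15 ± 0.18 (adjusted p = 0.0023). Arntl read 4.63, 4.80, 4.68, 4.85 and 4.46 in Sham AL and 5.17, 6.92, 7.29 and 5.79 in BWm. Its BWm values spread over more than 2 units, with replicates 2 and 3 the highest, and it rose by 1.61 ± 0.38 (adjusted p = 0.028). Dbp, a transcription factor in antiphase to Arntl, read 9.82, 9.44, 9.52, 9.40 and 9.33 in Sham AL and 8.85, 8.14, 8.33 and 8.91 in BWm, lowest in the same replicates 2 and 3, and fell by 0.95 ± 0.23 (adjusted p = 0.034). Nr1d1 fell by 0.87 ± 0.18 (adjusted p = 0.014) and Bhlhe41 by 0.84 ± 0.19 (adjusted p = 0.021), while the period genes Per1 (0.23 ± 0.26, adjusted p = 0.75) and Per3 (-0.23 ± 0.17, adjusted p = 0.58) were not called.

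Promoter stretches of a gene that rose and one that fell show that both hold the canonical E-box CACGTG, in capitals, upstream of the start of transcription (mouse RefSeq, GRCm38.p6, 5′ to 3′ on the strand of the gene).
Cry1 (chr10:85185089-85185134, minus strand): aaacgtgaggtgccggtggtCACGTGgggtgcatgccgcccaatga
Bhlhe41 (chr6:145865548-145865593, minus strand): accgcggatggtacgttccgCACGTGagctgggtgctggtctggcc

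The E-box, which reads the same on both strands, occurs in 7.15% of promoter windows, or in 8.09% of genes with a window. It occurs in 4 of the 8 called clock genes (Bhlhe41, Cry1, Lonrf3 and Tspan4) and in 4 of 17 members with a window that were not called. The labels give no time of day for either group, so a shift in the phase of the clock and a change in its mean level cannot be told apart. Cry1, Nfil3 and Lonrf3 were called whichever array was left out. Of the others, Arntl was not called without Sham AL replicate 2, 3 or 5 or BWm replicate 2 or 3 (adjusted p up to 0.12), Dbp without those arrays or Sham AL replicate 1 (up to 0.14), Nr1d1 without BWm replicate 2 (0.054), Bhlhe41 without BWm replicate 1 or 3 (up to 0.060) and Tspan4 without BWm replicate 2 (0.056). The list therefore had 3 rises without BWm replicate 2, and 1 fall without BWm replicate 2 or BWm replicate 3.

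Stress-responsive genes did not move as one group. The metallothioneins Mt1 and Mt2, zinc-binding proteins induced by glucocorticoids and metals, both rose. Mt1 read 8.31, 8.80, 9.03, 9.37 and 9.14 in Sham AL and 10.23, 10.20, 10.40 and 10.29 in BWm, a rise of 1.35 ± 0.21 (2.54-fold, adjusted p = 0.0020) without overlap, and Mt2 rose by 1.53 ± 0.27 (adjusted p = 0.0044). Of 24 glucocorticoid targets, 4 rose (Mt2, Mt1, Fkbp5 and Angptl4), 0 fell, and the median was 0.34. Without Sham AL replicate 4 another member, Zbtb16, was called (1.43 ± 0.34, adjusted p = 0.033, against 0.083 with all arrays). Fkbp5, a co-chaperone of the glucocorticoid receptor, read 5.74, 5.64, 5.57, 6.07 and 5.92 in Sham AL and 6.98, 7.63, 7.34 and 6.47 in BWm and rose by 1.31 ± 0.25 (adjusted p = 0.0080). Tsc22d3 (GILZ), another classic target, differed by 0.41 ± 0.15 (adjusted p = 0.18). Of 19 heat shock genes, 1 was called (5.26%, against 2.84% of all genes), and the list median was 0.15. The called gene was Hspa1b, an inducible HSP70 with a near-identical copy in Hspa1a, which rose by 1.75 ± 0.39 (adjusted p = 0.019). Its call did not hold without Sham AL replicate 2 or BWm replicate 2 or 3 (adjusted p up to 0.084).

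Targets of NRF2, the oxidant and electrophile sensor, went down in part. Of 22 measured, 5 fell (Gstm4, Srxn1, Pgd, Me1 and Ephx1) and 0 rose (1 rose once array medians were subtracted), with a median of -0.42. Srxn1, sulfiredoxin, read 6.96, 7.04, 7.39, 7.36 and 7.55 in Sham AL and 6.38, 5.74, 5.67 and 6.19 in BWm. It fell by 1.27 ± 0.22 (adjusted p = 0.0040) without overlap, and Gstm4, a glutathione transferase of a family with similar copies, by 1.40 ± 0.21 (adjusted p = 0.0019). Nqo1, the usual marker of NRF2 activity, differed by -0.59 ± 0.26 (adjusted p = 0.27), and the glutathione synthesis genes Gclc (-0.13 ± 0.13) and Gclm (0.15 ± 0.12) were not called (adjusted p = 0.71 and 0.61). The list had 2 calls without BWm replicate 2. Pgd was not called without BWm replicate 2 or 3 (adjusted p up to 0.094), Ephx1 without BWm replicate 2 (0.063) and Me1 without Sham AL replicate 2 or BWm replicate 1 or 2 (up to 0.083).

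The list of cytoskeleton and actin genes, which also holds annexins and galectins, had the next highest share of falls with all arrays. Of 36 measured, 11 fell and 0 rose, with a median of -0.33 and 32 members below 0. The 11 were the actins Actg1 and Actb, tropomyosin Tpm2, calponin Cnn2, the hepatocyte keratins Krt8 and Krt18, the annexins Anxa2 and Anxa5, the annexin partner S100a10 and the galectins Lgals1 and Lgals3. Without Sham AL replicate 4, 8 of the 36 fell, a lower share than among interferon-stimulated genes (8 of 34) or NRF2 targets (5 of 22). Krt18 read 8.79, 8.97, 9.05, 8.72 and 9.26 in Sham AL and 8.22, 7.90, 7.67 and 8.11 in BWm, a fall of 0.98 ± 0.17 (adjusted p = 0.0036), and its partner Krt8 fell by 0.95 ± 0.18 (adjusted p = 0.0068). S100a10 fell by 1.06 ± 0.14 (adjusted p = 0.00091) and Actg1 by 0.97 ± 0.16 (adjusted p = 0.0023), both with a gap between the groups. Lgals1 read 8.08, 8.78, 8.48, 9.5 and 8.68 in Sham AL and 7.35, 7.0, 6.37 and 7.52 in BWm (-1.64 ± 0.30, adjusted p = 0.0050; -1.44 without Sham AL replicate 4, where it was highest), and Anxa2 showed -1.56 ± 0.28 (adjusted p = 0.0047). Sprr1a, a cross-linked envelope protein induced in injured epithelium, read 5.62, 5.32, 6.77, 6.68 and 5.92 in Sham AL and 4.77, 3.86, 3.00 and 3.07 in BWm. It fell by 2.39 ± 0.43 (5.24-fold, adjusted p = 0.0047), and BWm replicates 2, 3 and 4 lay below the array medians. Actb and Lgals3 were called at 0.048 and 0.044 and Cnn2 at 0.022; none of the 3 was called without Sham AL replicate 4. Actb was also not called without Sham AL replicate 1, 2 or 3 or BWm replicate 1, 2 or 3 (up to 0.18), Lgals3 without Sham AL replicate 3 or 5 or BWm replicate 1, 3 or 4 (up to 0.17) and Cnn2 without Sham AL replicate 2 or BWm replicate 3 (up to 0.10).

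Interferon-stimulated genes lay low in BWm. Of 34 measured, 7 fell (Isg15, Ifit1, Psmb9, Oasl1, Ddx58, Ifih1 and Xaf1), 0 rose and 32 lay below 0, with a median of -0.32. Without Sham AL replicate 4 there were 8 falls: Xaf1 lost its call (adjusted p = 0.054), and Tap1 and Irgm1 gained one (adjusted p = 0.012 and 0.041, against 0.058 and 0.082). Stretches upstream of the start of transcription of Isg15 and Ifit1 hold the core of the interferon-stimulated response element, GAAA, any 2 bases and GAAA on either strand, in capitals (mouse RefSeq, GRCm38.p6, 5′ to 3′ on the strand of the gene); where it lies on the opposite strand it reads TTTC, 2 bases and TTTC, and matches can overlap.
Isg15 (chr4:156200855-156200916, minus strand): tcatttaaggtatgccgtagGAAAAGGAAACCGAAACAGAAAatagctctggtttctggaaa
Ifit1 (chr19:34640765-34640833, plus strand): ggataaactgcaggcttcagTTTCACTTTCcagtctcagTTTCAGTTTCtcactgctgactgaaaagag

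This core occurs in 3.44% of promoter windows, or in 3.99% of genes with a window. It occurs in 4 of the 7 called interferon genes and in 11 of 19 members with a window that were not called. Isg15, a ubiquitin-like modifier, read 5.79, 5.88, 5.59, 5.84 and 6.14 in Sham AL and 5.24, 5.05, 4.37 and 5.16 in BWm. The groups did not overlap, and it fell by 0.89 ± 0.16 (adjusted p = 0.0057). Ddx58, the RNA sensor RIG-I, fell by 0.62 ± 0.10 (adjusted p = 0.0027) and Ifit1, an RNA-binding antiviral protein, by 0.76 ± 0.18 (adjusted p = 0.025). Isg15 and Ddx58 alone were called whichever array was left out, and they were the 2 calls of the list left without Sham AL replicate 2, BWm replicate 2 or BWm replicate 3; 4 calls were left without Sham AL replicate 5. Besides those arrays, Ifit1 also lost its call without Sham AL replicate 1 or 5, Ifih1 without Sham AL replicate 5, Xaf1 without Sham AL replicate 3, 4 or 5, and Oasl1 without Sham AL replicate 1 or 3 or BWm replicate 4. Their adjusted p reached 0.095 (Psmb9), 0.11 (Ifit1 and Xaf1), 0.12 (Ifih1) and 0.14 (Oasl1). Gbp10, a guanylate-binding protein of the interferon gamma response outside this list, read 8.55, 7.99, 7.66, 8.0 and 8.59 in Sham AL and 7.09, 6.11, 6.05 and 7.16 in BWm and fell by 1.55 ± 0.29 (adjusted p = 0.0061), a value that similar Gbp copies can share.

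The largest fall among genes named for immune cells was Themis, a regulator of T cell receptor signalling. It read 5.75, 5.85, 5.78, 5.28 and 6.14 in Sham AL and 4.06, 2.99, 3.52 and 4.07 in BWm, and fell by 2.10 ± 0.31 (4.28-fold, adjusted p = 0.0017) to near or below the array median. The other 20 measured T cell markers were not called: Cd3e differed by 0.01 ± 0.17 and Cd8a by -0.17 ± 0.12 (adjusted p = 0.99 and 0.57), and the list median was -0.08. Of 38 cell cycle genes, 5 subunits of the replication helicase (Mcm2, Mcm3, Mcm4, Mcm5 and Mcm6) had differences of -0.91 to -0.61, and 35 members lay below 0 (median -0.27). Their adjusted p values lay between 0.025 and 0.034 with all arrays and reached 0.13 in leave-one-out fits. The list had 0 calls without Sham AL replicate 4, Sham AL replicate 2 or BWm replicate 3 (adjusted p of the 5 genes from 0.054 to 0.066 without Sham AL replicate 4), 1 without Sham AL replicate 3 or BWm replicate 2, 2 without BWm replicate 4 and 3 without Sham AL replicate 5 or BWm replicate 1.

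Markers of other cells in the liver gave few calls. Of 22 Kupffer cell markers, Cd163, the haemoglobin scavenger receptor, and Slc40a1, the iron exporter, rose (1.07 ± 0.27 and 0.61 ± 0.15, adjusted p = 0.036 and 0.039), neither without Sham AL replicate 4, and the list median was 0.02; Clec4f, which marks these cells, differed by -0.02 ± 0.16. Both calls held only without Sham AL replicate 1, and Slc40a1 was called in no other leave-one-out fit, while Cd163 was also called without BWm replicate 4. Of 24 markers of recruited and lipid-associated macrophages, 2 fell, Ly6c2 (-0.78 ± 0.19, adjusted p = 0.028, and up to 0.097 without Sham AL replicate 1 or 3 or BWm replicate 1, 2 or 3) and Lgals3, with a median of -0.32. The centred mean of that list was -0.508 to -0.114 on the BWm arrays and -0.400 to 0.323 on the Sham AL arrays, so the groups overlapped. Its count was 0 without Sham AL replicate 3 or BWm replicate 1 or 3, 1 without Sham AL replicate 4 or 5 or BWm replicate 2 or 4, and 5 without Sham AL replicate 1. Of 38 matrix genes, Col5a3 alone fell (-0.49 ± 0.10, adjusted p = 0.0098), a share of 2.63% called against 2.84% of all genes. The matrix list had a median of -0.26 and 5 calls without Sham AL replicate 1. Lists for stellate cells (26 genes), cholangiocytes (14), neutrophils (21), dendritic cells (15) and B cells (16) had 0 calls. These shifts accompany the interferon, cell cycle and cytoskeletal falls, and their part in them was not tested.

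**Figure D4:**
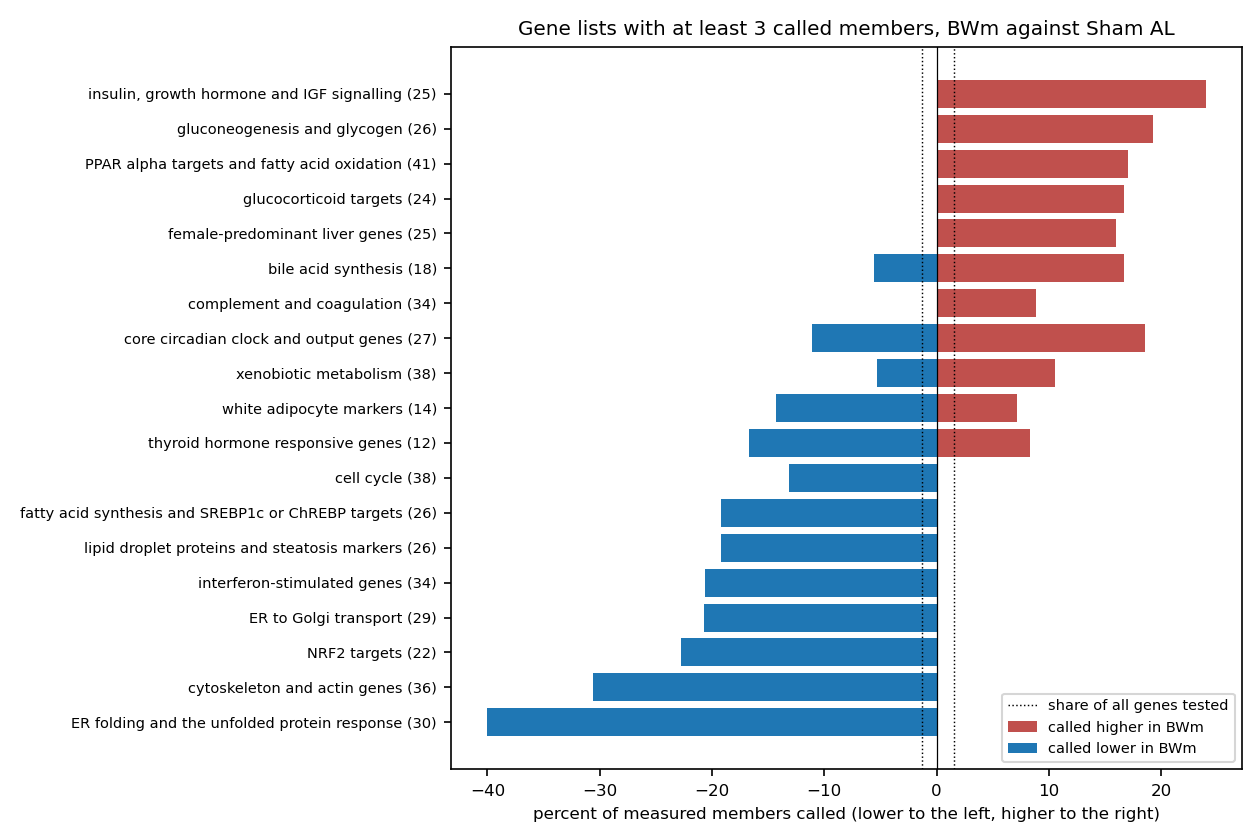
Percent of the measured members of each gene list that were called higher (right) or lower (left) in BWm, for lists with at least 3 called members; the number measured is in brackets and dotted lines mark the share of all genes tested, 1.53% higher and 1.3% lower. ER folding genes have the highest share of falls (40%) and insulin, growth hormone and IGF signalling genes the highest share of rises (24%).

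Several of the largest changes belonged to none of these groups. Fmo2, a flavin-containing monooxygenase, read 6.57, 6.87, 7.18, 7.27 and 7.06 in Sham AL and 8.30, 9.73, 9.25 and 8.73 in BWm and rose by 2.02 ± 0.27 (4.04-fold, adjusted p = 0.00091). Rab30, a small GTPase of the Golgi, read 6.03, 5.76, 5.86, 5.70 and 6.34 in Sham AL and 7.30, 8.61, 8.18 and 6.95 in BWm and rose by 1.82 ± 0.27 (adjusted p = 0.0018). In both genes BWm replicates 2 and 3 were the highest, and no BWm array reached down to Sham AL. Gadd45g, a growth arrest gene, rose by 1.80 ± 0.34 (adjusted p = 0.0063), Sftpa1, surfactant protein A, by 1.78 ± 0.28 (adjusted p = 0.0023) and Nipal1, of the NIPA magnesium transporter family, by 1.70 ± 0.25 (adjusted p = 0.0017). Retsat, retinol saturase, rose by 0.99 ± 0.12 (adjusted p = 0.00082). Aqp8, a water and hydrogen peroxide channel of hepatocytes, read 7.25, 7.48, 7.34, 6.65 and 7.29 in Sham AL and 5.66, 4.93, 4.99 and 5.59 in BWm. Its groups did not overlap, and it fell by 1.91 ± 0.19 (3.76-fold), with the smallest adjusted p of the named genes (0.00019). Serpina7, thyroxine-binding globulin, fell by 1.67 ± 0.27 (adjusted p = 0.0027), and Serpina12, the secreted serpin vaspin, by 1.20 ± 0.24 (adjusted p = 0.011; 0.054 without BWm replicate 2).

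The bypass-operated mice, to whose weight the BWm mice were held, show which of these levels differed between the 2 groups of matched weight. In that contrast 1411 genes were called (6.36%). It shares the BWm arrays with the comparison above, so each gene's own values are given rather than any overlap. Cidec read 4.72 to 6.16 in RYGB (median 5.36) and differed from BWm by 0.23 ± 0.41 (BWm minus RYGB, adjusted p = 0.85). Igfbp1 (0.65 ± 0.28, adjusted p = 0.22), Cyp39a1 (0.36 ± 0.31, adjusted p = 0.62), Mt1 (0.04 ± 0.20, adjusted p = 0.96), Apom (0.05 ± 0.13, adjusted p = 0.90) and Nipal1 (-0.16 ± 0.24, adjusted p = 0.81) also had no call between BWm and RYGB, which does not show that their levels were equal.

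Other genes did differ between BWm and RYGB. Acot1 read 5.61 to 6.48 in RYGB (median 5.87), 2.37 ± 0.34 below BWm (adjusted p = 0.00034). Cry1 read 4.81 to 6.06 (median 5.18), 1.65 ± 0.20 below BWm (adjusted p = 8.8e-05), and Irs2 read 6.60 to 7.66 (median 7.22), 1.25 ± 0.21 below BWm (adjusted p = 0.0012). For all 3, every RYGB array lay below every BWm array. Hyou1 read 9.74 to 10.34 in RYGB (median 10.08), above every BWm array (-1.51 ± 0.15, adjusted p = 1.9e-05). Sprr1a read 6.80 to 9.20 (median 8.14), against 3.00 to 4.77 in BWm (-4.37 ± 0.41, adjusted p = 1.6e-05). Sqle read 5.17 to 8.26 (median 7.02), against 3.18 to 4.26 in BWm (-3.07 ± 0.43, adjusted p = 0.00028). Scd1 lay lower in RYGB than in BWm (0.88 ± 0.15, adjusted p = 0.0013), and Fgf21 higher (-1.36 ± 0.25, adjusted p = 0.0022). For Hyou1, Hspa5, Srxn1 and Krt18 the BWm mean was the lowest of the 3 groups, and all 4 differed from RYGB (adjusted p from 1.3e-05 to 7.4e-05).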

How the data were processed

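Liver RNA was measured on Affymetrix whole-transcript arrays (Mouse Gene 2.0 ST), 1 per mouse; titles number the arrays as biological replicates. The authors summarized all 15 arrays together with RMA in Affymetrix Expression Console 1.4.1.46, per the series' design text and the submitters' processing notes, and deposited log2 signals of 41345 transcript clusters. The sources used here give neither genome build nor annotation version; scanner files were not used, so signal over background is unknown. The platform table names 1 gene for 23521 clusters; 1814 with several and 16010 with none were left out. The cluster with the highest mean was kept for 1082 genes with several, leaving 22180. Contrasts came from 1 limma 3.58.1 fit (R 4.3.3) over the 3 groups, 12 residual and 5.85 prior degrees of freedom, two-sided. No filter was applied. The median SE over genes was 0.14 with these numbers of arrays.

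The comparison, the 64 gene lists (1266 of 1397 genes measured) and the motifs were chosen with earlier results of these data known. Genes were named from a pool of 273: the 15 largest rises and falls among calls in both fits, every called list member and the first 3 of each list, leaving predicted, clone-named, olfactory, Mup, immunoglobulin and small RNA genes out of the largest changes. The text names only a part of this pool, so some called members and some of the first 3 members of a list do not appear. Pdk4, Fgf21, Plin2, Xbp1, Per3, Zbtb16, Tap1, Irgm1, Txndc5, Abcc3 and Atg7 were added after their values were seen. Alternatives are given in the closing section. Promoter windows, 250 bases before to 50 after each start, are RefSeq sequence. No batch is given in the labels; Sham AL replicate 1 has an animal number well below those of the other Sham AL and BWm mice, which is of unstated meaning. Python 3.11.15, pandas 2.3.3 and matplotlib 3.10.9 made tables and figures.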

Additional observations from a re-analysis of the deposited data

Results flagged for a closer look

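Of 288 groups examined (144 genes named in the report, in BWm and in Sham AL), 20 held an array far from the rest of its group by Dixon's criterion, which chance alone meets in about 1 of 20 groups. Sham AL replicate 4 gave 7 of them. It was high for Cyp11b1 (10.37, nearest other array 3.10), Ucp1 (11.89, nearest 4.54), Pgd (9.01, nearest 8.04), Sqle (5.66, nearest 4.47) and Actg1 (8.47, nearest 8.05), and low for Aqp8 (6.65, nearest 7.25) and Igf1 (9.51, nearest 9.93). BWm replicate 1 was high for 4 secretory genes: Dnajb11 (7.75, nearest 7.24), Hsp90b1 (11.34, nearest 10.91), Manf (4.68, nearest 4.16) and Copg1 (7.66, nearest 7.39). Sham AL replicate 1, whose animal number stands apart, was high for Asl (10.21, nearest 9.89), Ephx1 (10.43, nearest 10.25) and Hsd3b7 (9.43, nearest 9.22) and low for Mcm4 (5.03, nearest 5.36). Single arrays stood apart for Cd3e (Sham AL replicate 5, 4.62), Got1 (Sham AL replicate 3, 9.69), Cyp8b1 (BWm replicate 2, 8.85), Gclc (BWm replicate 3, 9.80) and Phgdh (BWm replicate 3, 4.08).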

How the results depend on the processing

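The count of 629 called genes ranged from 284 to 646 when single arrays were left out. It was 1011 among genes above the median level only, 383 with a fold of at least 1.5 added, 368 in a fit on the BWm and Sham AL arrays only without Sham AL replicate 4, and 90 by the methods' one-way analysis of variance after Benjamini-Hochberg adjustment (554 by the methods' own rule of unadjusted p and fold). With replicate number as a block it was 325, and 242 with the replicate block and without Sham AL replicate 4. The numbers share no stated origin, and deviations of same-numbered BWm and Sham AL arrays correlated at -0.005, -0.118, 0.190 and 0.031, so they were not taken to pair the mice. Under the other alternatives it was 431 to 875. Of the 130 called genes in the pool of 273 from which names were drawn, 0 reversed in any alternative, and 57 lost their call when at least 1 single array was left out. The call was lost by 42 with the replicate block, 60 with it and without Sham AL replicate 4, 26 in the fit on the BWm and Sham AL arrays only, 34 in that fit without Sham AL replicate 4, 12 when array medians were subtracted (which moved the median of all differences by 0.06) and 5 under quantile normalization. Arrays give no counts and signal over background is unknown, so folds of dim genes are the least certain.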

Other observations

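Drug and steroid metabolism genes moved in both directions. Of 38 measured xenobiotic metabolism genes, 4 rose (Fmo2, Cyp3a13, Sult1d1 and Sult1a1) and 2 fell (Cyp2c55 and Aldh1a7). Cyp3a13, a cytochrome P450, rose by 0.86 ± 0.13 (limma, adjusted p = 0.0017), Sult1d1, a sulfotransferase, by 0.81 ± 0.16 (adjusted p = 0.0099), and Aldh1a7, an aldehyde dehydrogenase, fell by 0.90 ± 0.15 (adjusted p = 0.0029). Sult1a1 was called at 0.047 with all arrays and in no leave-one-out fit except that without Sham AL replicate 5 (adjusted p up to 0.18). Cyp2c55 was not called without BWm replicate 2 or 3 (adjusted p up to 0.099), which left 1 fall. Cyp3a11 and Cyp2b10, targets of the drug receptors PXR and CAR, differed by -0.52 ± 0.23 and 0.49 ± 0.20 and were not called (adjusted p = 0.27 and 0.24).

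Of 25 genes known to be higher in female than in male mouse liver, 4 rose (Lepr, Cyp39a1, Acot3 and Acot4) and 0 fell, with a median of 0.24. All 4 were already counted in lists above. Of 29 genes known to be higher in males, 1 fell (Serpina12) and 0 rose, a share of 3.45% called against 2.84% of all genes, with a list median of -0.26. Without BWm replicate 2 the median was -0.17, with 0 calls. The centred mean of this list was -0.66 to 0.294 on the BWm arrays, lowest on replicate 2, and 0.218 to 0.443 on the Sham AL arrays, so the groups overlapped. Mup20, a male urinary protein, differed by -0.52 ± 0.14 (adjusted p = 0.054). All mice were male. Of 34 complement and coagulation genes, Pros1, F7 and Kng2 rose, with Pros1, protein S, at 0.61 ± 0.12 (adjusted p = 0.0097); F7 and Kng2 were not called without Sham AL replicate 2, 3 or 4 or BWm replicate 2, 3 or 4, which left 1 rise, nor Kng2 without Sham AL replicate 1 (adjusted p up to 0.083 for F7 and 0.16 for Kng2). Of 30 proteasome subunits, 29 lay below 0 (median -0.28) and 1 was called (3.33%, against 2.84% of all genes). It was Psmd14 (-0.64 ± 0.13, adjusted p = 0.013), which was not called without BWm replicate 3 (adjusted p = 0.061), leaving 0. Map1lc3b, the autophagosome protein LC3B, was the called member of 24 autophagy genes (4.17%) and rose by 0.82 ± 0.14 (adjusted p = 0.0034). Atg7 was not called with all arrays (adjusted p = 0.058) and was called without Sham AL replicate 4 (-0.45 ± 0.11, adjusted p = 0.031) and under quantile normalization (0.043). Of 27 acute phase genes 0 were called, and Hamp, which encodes the iron hormone hepcidin, differed by -0.48 ± 0.25 (adjusted p = 0.39).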
